A study of Mus musculus with 10 samples.

Results

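The fibroblast growth factor (FGF) pathway was followed in the first pharyngeal arch (PA1), the bud that forms the upper and lower jaws, of mouse embryos at E10.5. Its members were taken by gene symbol as every numbered *Fgf* gene, the FGF receptors with the decoy-like receptor *Fgfrl1* and the co-receptor *Klb*, the adaptors *Frs2* and *Frs3*, the receptor-binding *Flrt2* and *Flrt3*, the feedback inhibitors (*Spry1* to *Spry4*, *Spred1* to *Spred3*, *Dusp6* and *Il17rd*) and the PEA3 factors *Etv1*, *Etv4* and *Etv5*. This gave 44 of the 22114 protein-coding genes counted. Of these, 35 had at least 10 counts in at least 1 arch and were tested, and 9 did not. Arches of 5 wild-type (*Grhl2+/+*) and 5 *Grhl2-/-* embryos were compared, all male and on a C57BL/6 background (C57BL/6J in the methods of the study), with no treatment given in the labels. The null allele is constitutive, so every tissue of the mutants carried it and not the arch alone. *Grhl2* encodes an epithelial transcription factor. Each arch was dissected whole, with epithelium and mesenchyme together, and sequenced as 1 library. In such bulk RNA, fewer cells of a type and less RNA per cell cannot be told apart.

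FGFs are secreted proteins that bind receptor tyrosine kinases together with heparan sulfate, and the receptors signal through FRS adaptors to RAS and ERK. ERK activity switches on the PEA3 transcription factors and a set of inhibitors, among them Sprouty, SPRED and DUSP6, which then damp the same pathway. In the first arch, *Fgf8* from the oral ectoderm is known to pattern the underlying neural crest mesenchyme and to keep its cells alive.

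*Grhl2* itself had 36.1, 33.5, 40.5, 31.8 and 35.8 CPM (counts scaled to library size with TMM factors) in the wild-type arches WT1-566, WT1-568, WT3-588, WT5-566 and WT8-568. It had 5.56, 3.49, 2.80, 6.33 and 4.48 CPM in the *Grhl2-/-* arches KO1-588, KO1-628, KO2-566, KO2-568 and KO3-604, so no label was contradicted, although the counts do not show which exons the remaining reads came from. All values per arch below are given in this order. Total counts lay between 22188454 and 28801378 per arch, at which 3 reads, taken as the floor, correspond to 0.104 to 0.136 CPM. Floors cover counting error only, whereas the confidence intervals come from limma-voom and include the spread between arches.

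Most FGF pathway members did not pass the test between *Grhl2-/-* and wild-type PA1. *Fgf15* and *Spred3* rose, at FDR below 0.01 in limma-voom with Benjamini-Hochberg adjustment over all 14561 genes tested. No member fell at that threshold, while *Dusp6*, *Fgf8* and *Etv5* lay lower at FDR between 0.0104 and 0.0438. The 2 members higher are set against 0.879% of all genes tested that were called higher, 1.09% that were called lower and 1.96% in either direction. Of the 35 tested members, 8 had a negative change and an unadjusted p under 0.05, against 14.3% of all genes. Those with a positive change and an unadjusted p under 0.05 were *Fgf1*, *Fgf12*, *Fgf15*, *Frs3* and *Spred3*, against 14.2% of all genes. At FDR below 0.01, edgeR's quasi-likelihood test called 1 member lower, against 1.11% of all genes, and DESeq2 called 3, against 3.8%. At FDR below 0.05, 3 members were lower, against 3.87% of all genes, and 4 were higher, against 3.84% (7.71% in either direction). The median log2 fold change over the tested members was -0.022, with 18 below 0 and 17 above, and over all genes it was 0.011. Positive values mean higher in *Grhl2-/-* arches throughout.

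**Figure D1:**
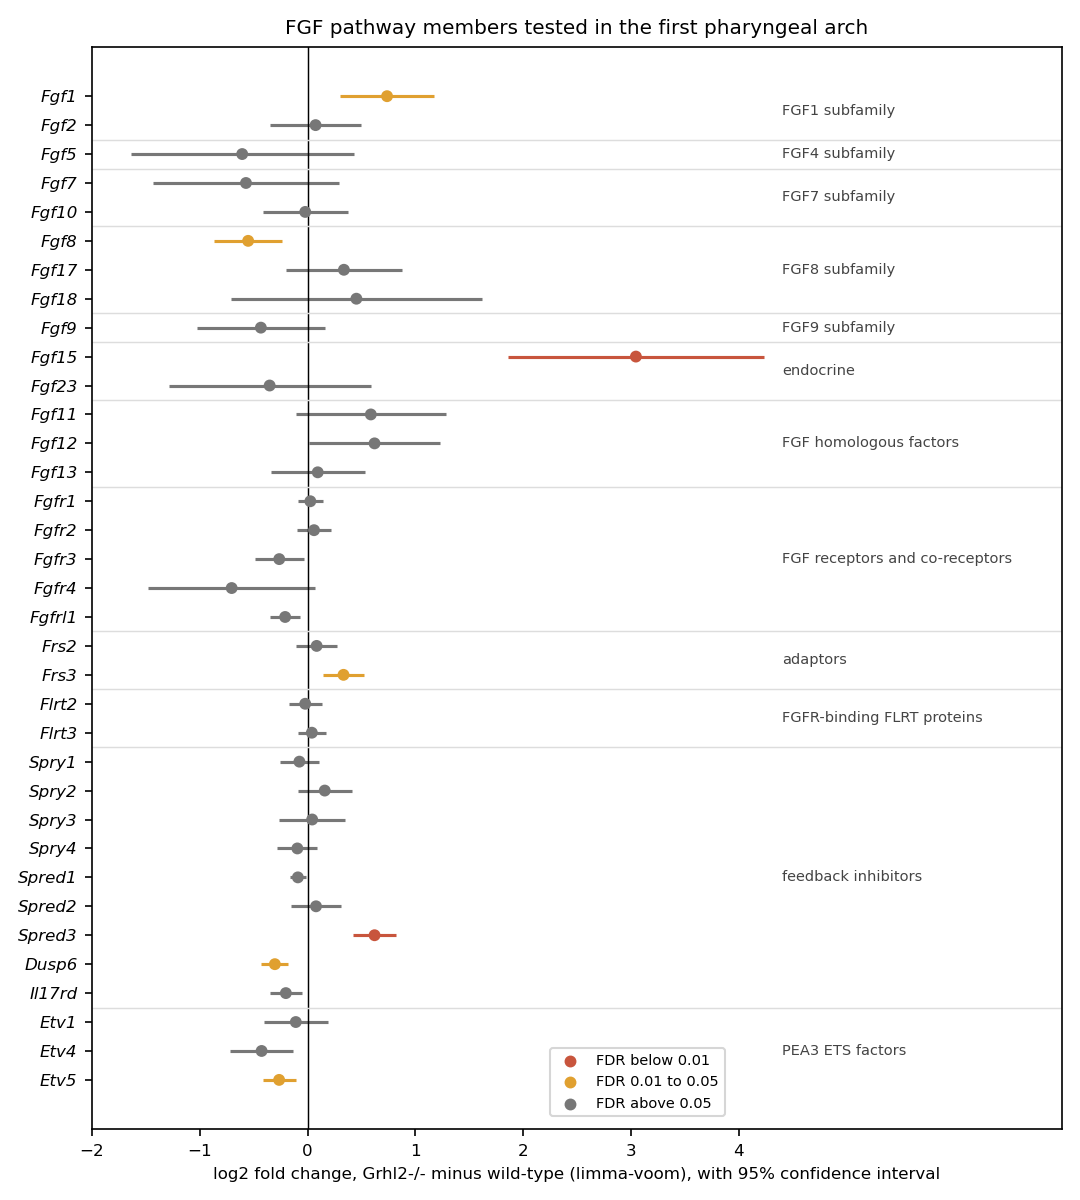
Log2 fold change between *Grhl2-/-* and wild-type PA1 (x axis, limma-voom) of the 35 tested members, in groups by role, with points as estimates and lines as 95% confidence intervals. *Fgf15* at 3.05 and *Spred3* at 0.62 pass FDR 0.01, and most other intervals cross 0.

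Levels were compared between genes as CPM per kb of annotated exon. *Dusp6*, which encodes the phosphatase that dephosphorylates ERK, was the most abundant member in wild-type arches, with a mean of 92.5 CPM per kb. *Spred1* followed at 40.5 CPM per kb and *Flrt3* at 30.4, and the ranges of *Dusp6*, *Spred1* and *Flrt3* over the 5 wild-type arches did not overlap. Further down the order most neighbours overlapped. *Fgf8* was the most abundant ligand at 12.7 CPM per kb, then *Fgf10* at 3.22 and *Fgf9* at 0.663, and these ligands' ranges did not overlap. From *Fgf9* down, each ligand overlapped the next. Among the receptor kinases, *Fgfr1* (20.4) and *Fgfr2* (17.3) overlapped, and both lay above *Fgfr3* (1.57) and *Fgfr4* (0.191).

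**Figure D2:**
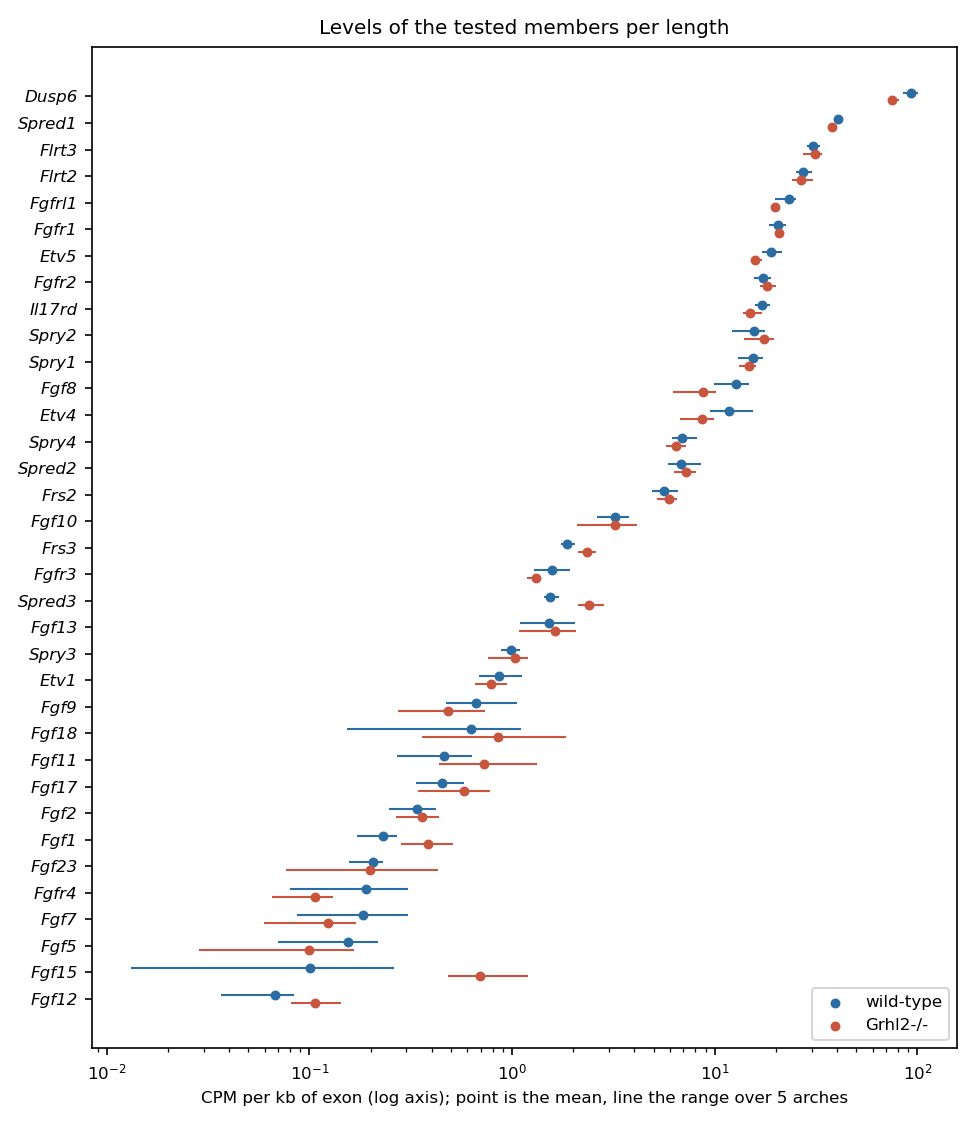
CPM per kb of exon (log axis) of the 35 tested members in wild-type (blue) and *Grhl2-/-* (red) PA1, with points as means and lines as the range over 5 arches. *Dusp6* is at the top with 92.5 CPM per kb in wild-type arches, and *Fgf15* is the ligand with the widest gap between the genotypes.

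Promoters are shown for the members whose CPM did not overlap between the genotypes, where the RefSeq table used here holds one. Each is the 250 bases before the RefSeq transcription start on GRCm38.p6, written 5′ to 3′ on the gene's own strand. *Frs3* was read from chr17:47694957-47695206 on the plus strand, *Spred3* from chr7:29168648-29168897 on the minus strand and *Dusp6* from chr10:99262981-99263230 on the plus strand. The *Frs3* and *Spred3* windows lie inside the annotated genes (GENCODE M21, chr17:47689030-47704286 and chr7:29158829-29170411). Starts further upstream in that annotation are therefore not covered.
Frs3: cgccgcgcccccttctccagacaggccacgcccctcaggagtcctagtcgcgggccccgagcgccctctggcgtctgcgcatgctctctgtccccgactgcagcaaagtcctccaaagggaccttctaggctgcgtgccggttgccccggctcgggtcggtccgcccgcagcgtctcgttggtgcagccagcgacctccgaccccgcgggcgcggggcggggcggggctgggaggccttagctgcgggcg
Spred3: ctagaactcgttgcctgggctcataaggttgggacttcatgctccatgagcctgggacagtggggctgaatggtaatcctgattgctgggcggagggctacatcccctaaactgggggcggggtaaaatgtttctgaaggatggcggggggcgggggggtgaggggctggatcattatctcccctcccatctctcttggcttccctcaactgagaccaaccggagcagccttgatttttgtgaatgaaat
Dusp6: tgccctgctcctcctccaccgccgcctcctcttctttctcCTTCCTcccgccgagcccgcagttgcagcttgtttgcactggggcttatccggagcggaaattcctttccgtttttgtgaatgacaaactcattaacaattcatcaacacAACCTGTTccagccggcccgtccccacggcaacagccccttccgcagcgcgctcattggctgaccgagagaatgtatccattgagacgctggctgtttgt
Capitals mark matches to motifs. In *Dusp6*, CTTCCT at position -210 from the start is the reverse complement of the PEA3 core AGGAAG, and AACCTGTT at position -100 is a variant of the grainyhead motif that was searched for only after this sequence had been read. The grainyhead motif AACCGGTT, which is its own reverse complement, was in none of the 36 promoter windows of the 27 tested members in the table, and in 0.116% of all 32851 windows. The variant AACCTGTT, on either strand, was in *Dusp6* and *Fgf10* and in 0.837% of all windows. AGGAAG, on either strand, was in the windows of 7 members (*Dusp6*, *Etv1*, *Fgf12*, *Fgfr2*, *Fgfr4*, *Flrt3* and *Spred2*) and in 29.5% of all windows. The ETS motif CCGGAAG, on either strand, was in *Fgfrl1* and *Frs2* and in 6.91% of all windows. These are matches of letters and not measured binding.

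*Fgf15*, the mouse counterpart of the endocrine hormone FGF19, had the largest change among the members. It lies at chr7:144896531-144900953 of GRCm38 on the plus strand. Wild-type arches had 0.227, 0.252, 0.802, 0.218 and 0.0404 CPM, from 5, 7, 23, 6 and 1 reads. *Grhl2-/-* arches had 3.67, 2.13, 1.83, 1.53 and 1.47 CPM, from 103, 55, 53, 43 and 38 reads. Every *Grhl2-/-* arch was above every wild-type arch, and the highest arch of each genotype was the one numbered 588. The log2 fold change was 3.05 (standard error 0.544, 95% confidence interval 1.86 to 4.24, FDR 0.00814 from limma-voom). Without both arches numbered 588 it was 3.29 (FDR 0.00369). The call rests on nearly all arches, since FDR was between 0.0119 and 0.0257 when WT1-566, WT1-568, WT5-566, WT8-568, KO1-628, KO2-566, KO2-568 or KO3-604 was left out. It was also lost without both WT1-566 and WT1-568, and with the number in the label as a replicate block, as given below. Exons of *Fgf15* share 787 bases with antisense genes. The libraries were stranded and the name of the deposited counts holds the word reverse, but counting by strand is not otherwise stated.

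*Fgf15* is known from the embryonic brain and retina among other sites, and the cells it came from in these arches were not measured. Markers of brain, eye and some other tissues stood higher in the *Grhl2-/-* arches too. Of 17 brain, eye and otic neuroepithelium genes, 15 were tested. Among them *Pax8* and *Nes* were higher at FDR below 0.01, against 0.879% of all genes, none was lower, and 7 were higher at FDR below 0.05, against 3.84%. *Pax8* had 0 or 1 read in each wild-type arch and 13 to 66 reads in *Grhl2-/-* arches. It reached the count minimum only through the *Grhl2-/-* arches, so no conclusion is drawn from its call. *Lhx2* (log2 fold change -0.30) and *En2* (-0.087) had negative changes, at FDR 0.627 and 0.853. The summed level of the list was 180 to 235 CPM in the wild-type arches and 273 to 387 CPM in *Grhl2-/-* arches, highest in KO1-588, and 1 of the genes was at 0 in every arch. *Nes*, the intermediate filament of neural progenitors, took most of that sum in wild-type arches, with 137 to 173 CPM there and 186 to 224 CPM in *Grhl2-/-* arches. Without *Nes* the sum was 38.2 to 71.5 CPM and then 73.6 to 178 CPM. *Otx2*, a forebrain and midbrain factor named here after its values were seen, had 1.18, 4.89, 11.7, 6.00 and 7.51 CPM in the wild-type arches and 38.3, 21.5, 12.9, 19.0 and 25.9 CPM in *Grhl2-/-* arches. *Pax6*, an eye and forebrain factor, was likewise highest in the arch numbered 588 of each genotype, at 6.45 CPM in WT3-588 and 37.3 CPM in KO1-588. Of 16 sensory neuron genes, 15 had positive changes, with a median log2 fold change of 1.96, against 0.011 over all genes. The lowest sums were those of WT1-566 and WT1-568, at 229 and 198 CPM, while the other wild-type arches, at 855 to 1375 CPM, lay within the *Grhl2-/-* range. None passed the test (smallest FDR 0.110), and the sums overlapped with the 519 to 1728 CPM of the *Grhl2-/-* arches. The sum of 6 heart genes was 1.64 to 3.92 CPM and then 5.73 to 13.3 CPM, without overlap and also highest in KO1-588. The sum of 8 pharyngeal endoderm genes was 29.7 to 40.4 CPM and then 38.2 to 52.5 CPM, and that of 7 endothelial genes 365 to 413 CPM and then 402 to 477 CPM, both with overlap. No heart, endoderm or endothelial gene passed FDR 0.01. The part of any of these tissues in the *Fgf15* result was not tested.

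**Figure D3:**
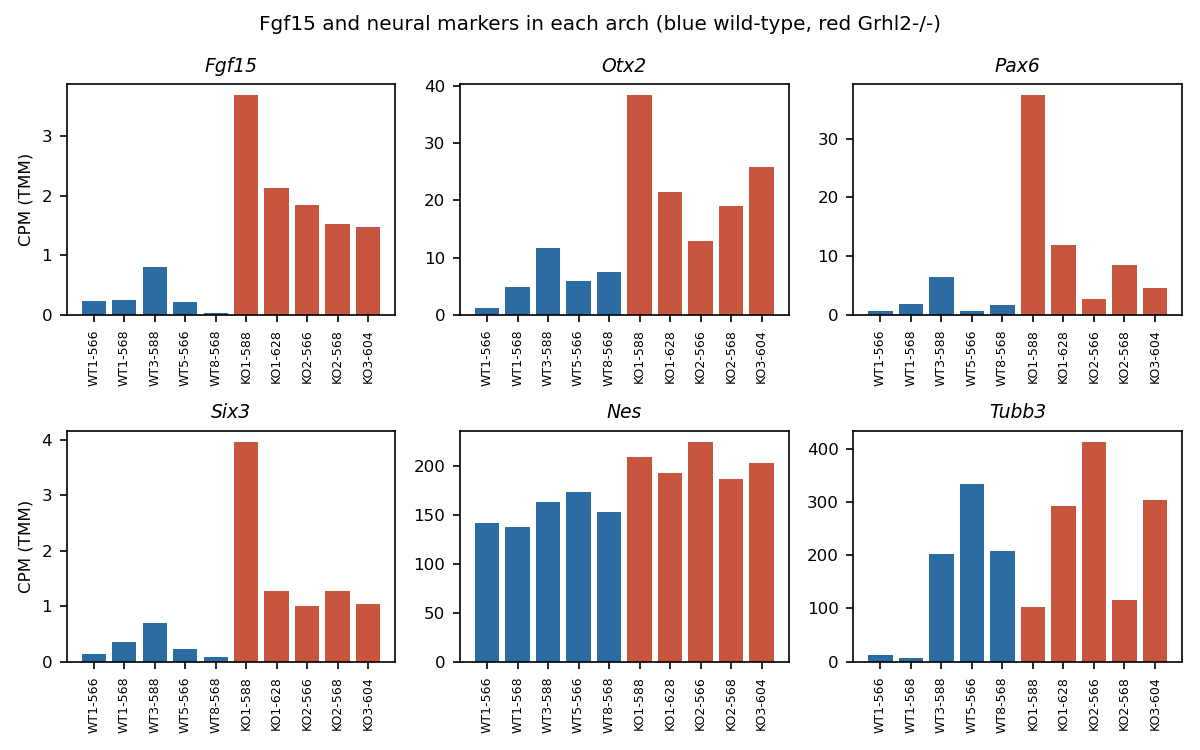
CPM of *Fgf15*, of the brain and eye markers *Otx2*, *Pax6*, *Six3* and *Nes* and of the neuronal gene *Tubb3* in each arch (bars, blue wild-type and red *Grhl2-/-*, each panel with its own axis from 0). KO1-588 has the highest *Fgf15* (3.67 CPM), *Otx2* (38.3 CPM) and *Pax6* (37.3 CPM) of the 10 arches.

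*Fgf8*, the main ligand of the arch ectoderm, was at chr19:45736798-45742915 on the minus strand. It had 18.03, 19.9, 18.6, 13.3 and 15.8 CPM in wild-type arches and 13.3, 11.1, 8.41, 12.5 and 13.6 CPM in *Grhl2-/-* arches. The ranges touched, with 1 wild-type arch, WT5-566, below the highest *Grhl2-/-* arch. The log2 fold change was -0.55 (standard error 0.145, 95% confidence interval -0.87 to -0.23, FDR 0.0422), which missed the threshold of 0.01. DESeq2 gave FDR 0.00405. Epithelial transcripts as a group were lower in the same arches. Of 15 surface and oral epithelium markers, 7 fell at FDR below 0.01, against 1.09% of all genes, and their sum was 482 to 615 CPM in the wild-type arches and 311 to 439 CPM in *Grhl2-/-* arches, with none at 0 in every arch. The part of epithelial content in the *Fgf8* value was not tested.

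The other FGF8 subfamily ligands did not pass the test. The log2 fold change was 0.34 for *Fgf17* (95% confidence interval -0.20 to 0.88, FDR 0.384) and 0.45 for *Fgf18* (-0.71 to 1.61, FDR 0.608), the latter turning to -0.26 without WT1-566 and WT1-568. Their mean levels in *Grhl2-/-* arches were 0.981 and 1.005 CPM. As a share of the summed CPM per kb of all 18 secreted ligands, *Fgf8* made up 60.8 to 70.2% in wild-type arches and 41.1 to 62.0% in *Grhl2-/-* arches. *Fgf15* made up 0.073 to 1.33% and then 2.88 to 7.53%. The summed ligand level was 16.2 to 20.98 CPM per kb in wild-type and 15.1 to 16.7 in *Grhl2-/-* arches, with overlap.

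**Figure D4:**
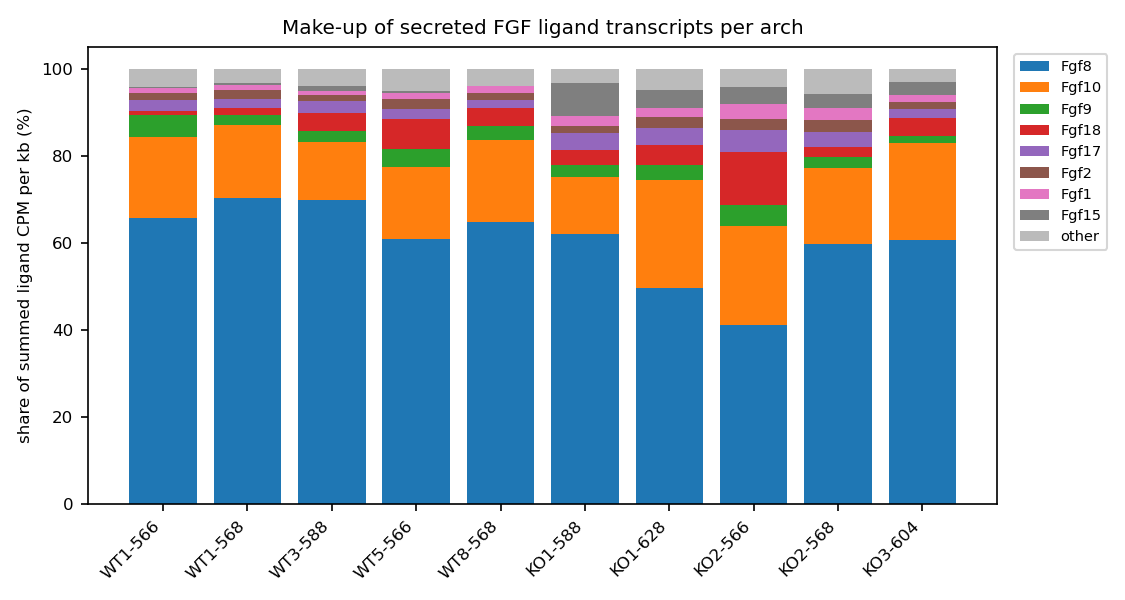
Share of each secreted FGF ligand (y axis, percent of summed CPM per kb) in each of the 10 arches (x axis), with less abundant ligands pooled as other. *Fgf8* is the largest segment in every arch, and its smallest share is 41.1%, in KO2-566.

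*Fgf1*, a ligand that binds every FGF receptor, had 1.27, 1.47, 0.941, 1.16 and 1.41 CPM in the wild-type arches and 1.998, 1.82, 2.80, 2.31 and 1.54 CPM in *Grhl2-/-* arches. The groups did not overlap, though the lowest *Grhl2-/-* arch lay close to the highest wild-type arch. On the log2 scale *Fgf1* differed by 0.74 (standard error 0.199, FDR 0.0455). *Fgf2*, also of the FGF1 subfamily, had 2.32, 2.84, 1.67, 2.65 and 2.06 CPM in the wild-type arches and 1.96, 2.94, 2.56, 2.88 and 1.81 CPM in *Grhl2-/-* arches. Its groups overlapped throughout, with a log2 fold change of 0.074 (FDR 0.832).

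*Fgf10*, the FGF7 subfamily ligand that mesenchyme sends to epithelium, had 17.4, 16.4, 12.0, 12.4 and 15.8 CPM in wild-type arches. In *Grhl2-/-* arches it had 9.56, 19.0, 15.7, 12.5 and 17.2 CPM. The groups overlapped, with the lowest value in KO1-588 and the highest in KO1-628. The log2 fold change was -0.022 (95% confidence interval -0.42 to 0.37, FDR 0.953). *Fgf9* had 4.91, 2.19, 2.47, 3.16 and 2.67 CPM in the wild-type arches and 2.10, 2.63, 3.43, 1.81 and 1.27 CPM in *Grhl2-/-* arches, a log2 fold change of -0.43 (FDR 0.310). Its groups overlapped, and the highest arch was WT1-566.

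The remaining tested ligands were near the detection floor. *Fgf5* had 12, 6, 5, 13 and 13 reads in wild-type and 2, 7, 12, 6 and 7 reads in *Grhl2-/-* arches, and *Fgf23*, a hormone of phosphate balance, had 8, 11, 12, 11 and 7 reads and then 5, 13, 4, 22 and 5. Both overlapped between genotypes, at FDR 0.418 for *Fgf5* and 0.623 for *Fgf23*. *Fgf7* had a log2 fold change of -0.57 (FDR 0.357). Members under the count minimum were *Fgf3*, *Fgf4*, *Fgf6*, *Fgf14*, *Fgf16*, *Fgf20*, *Fgf21*, *Fgf22* and *Klb*, the co-receptor for FGF15 and FGF21. Their highest count in any arch was 9, in *Fgf20*, then 8 in *Fgf3*, 5 in *Fgf14* and *Klb*, 3 in *Fgf16*, 2 in *Fgf21* and 1 in *Fgf22*, and *Fgf4* and *Fgf6* had 0 reads in every arch.

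The FGF homologous factors stay inside the cell and bind sodium channels in neurons. *Fgf13* was the most abundant, with 5.68, 4.39, 5.33, 8.21 and 7.07 CPM in the wild-type arches and 6.10, 7.28, 8.31, 4.34 and 6.64 CPM in *Grhl2-/-* arches. Its groups overlapped (log2 fold change 0.094, FDR 0.789). *Fgf11* differed by 0.59 on the log2 scale (FDR 0.243) and *Fgf12* by 0.62 (FDR 0.165), also with overlap.

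No receptor passed the test in limma-voom at either FDR threshold. *Fgfr1*, the main receptor kinase of mesenchyme, had 222, 213, 184, 198 and 190 CPM in the wild-type arches and 196, 201, 209, 211 and 205 CPM in *Grhl2-/-* arches. All 5 *Grhl2-/-* values lay within the wild-type range. The log2 fold change was 0.026 (95% confidence interval -0.088 to 0.14, FDR 0.780). *Fgfr2* had a mean of 178 ± 13.98 CPM (SD, n = 5) in the wild-type arches and 186 ± 17.5 CPM in *Grhl2-/-* arches (log2 fold change 0.060, 95% confidence interval -0.095 to 0.21, FDR 0.610). Of the summed CPM per kb of the 4 receptor kinases, *Fgfr1* took 49.3 to 53.4% in wild-type and 48.5 to 53.8% in *Grhl2-/-* arches. *Fgfr3* (log2 fold change -0.26, FDR 0.127) and *Fgfr4* (-0.70, FDR 0.213) did not pass the test. *Fgfrl1*, which lacks the kinase domain, had 64.3 ± 6.07 CPM in the wild-type arches and 55.4 ± 2.19 CPM in *Grhl2-/-* arches (log2 fold change -0.21, FDR 0.0696).

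Counts per gene do not separate the epithelial IIIb and mesenchymal IIIc splice forms of *Fgfr2*, so a shift between them would not be seen here. The regulators of that choice were measured. *Esrp1*, which favours the epithelial form, fell by 1.87 on the log2 scale (FDR 1.88e-04), with 41.0 ± 3.53 CPM (SD, n = 5) in the wild-type arches and 11.8 ± 4.56 CPM in *Grhl2-/-* arches. *Esrp2*, which acts alike, fell by 1.69 (FDR 7.59e-06), with 12.9 ± 1.44 and 3.97 ± 0.409 CPM. For *Rbfox2*, which favours the mesenchymal form, the log2 fold change was 0.077 (FDR 0.428). Both *Esrp* genes are epithelial, and the lower epithelial sum given beside *Fgf8* applies to them too. The part of epithelial content in these whole-arch values was not tested. The study also measured isolated arch epithelium by quantitative RT-PCR. There both *Esrp* genes were lower in *Grhl2-/-* embryos, the epithelial form of *Fgfr2* was lower and its mesenchymal form higher. By chromatin immunoprecipitation from whole arches, the study found GRHL2 bound at both *Esrp* loci.

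The adaptors couple activated receptors to RAS. *Frs2*, the more abundant, had 47.6, 57.6, 42.7, 45.4 and 52.4 CPM in the wild-type arches and 45.1, 54.3, 54.9, 56.6 and 48.8 CPM in *Grhl2-/-* arches, with overlapping groups (FDR 0.561). *Frs3*, at chr17:47689030-47704286 on the plus strand, had 6.40, 5.43, 5.75, 5.45 and 6.18 CPM in the wild-type arches and 6.99, 7.24, 6.65, 7.79 and 8.07 CPM in *Grhl2-/-* arches. The groups of *Frs3* did not overlap, with a difference of 0.33 on the log2 scale (standard error 0.0867, FDR 0.0410). Exons of *Frs3* overlap an antisense gene, *Frs3os*, by 509 bases. *Flrt2*, a membrane protein that binds FGF receptors, had 232, 215, 194, 209 and 199 CPM in the wild-type arches and 212, 186, 214, 235 and 187 CPM in *Grhl2-/-* arches. *Flrt2* (FDR 0.865) and *Flrt3* (FDR 0.702) overlapped between the genotypes.

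*Spred3*, which encodes an inhibitor of RAS activation of ERK, was the only feedback gene called by limma-voom. It lies at chr7:29158829-29170411 on the minus strand. It had 8.95, 9.53, 8.89, 10.6 and 9.90 CPM in the wild-type arches and 13.2, 17.6, 15.4, 13.7 and 14.2 CPM in *Grhl2-/-* arches. All 5 *Grhl2-/-* arches stood clear of all 5 wild-type arches, and *Spred3* rose 1.54-fold (log2 fold change 0.62, standard error 0.0922, 95% confidence interval 0.42 to 0.82, FDR 0.00260). Without WT3-588, FDR was 0.0101, and it was between 0.00248 and 0.00998 when any other arch was left out. Its relatives did not pass the test, with log2 fold changes of -0.090 for *Spred1* (FDR 0.126) and 0.079 for *Spred2* (FDR 0.669). *Spred3* shares 202 exon bases with *Ggn* on the opposite strand. *Ggn* had 0.400 to 0.719 CPM in the wild-type arches and 0.642 to 1.004 CPM in *Grhl2-/-* arches, far below *Spred3*. Its own log2 fold change was 0.67 (FDR 0.0865 from limma-voom).

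*Dusp6*, the feedback phosphatase, had lower values in the mutants. It lies at chr10:99263231-99267489 on the plus strand. Wild-type arches had 313, 314, 288, 266 and 268 CPM and *Grhl2-/-* arches 255, 226, 235, 227 and 228 CPM. The groups did not overlap, with KO1-588 the highest of the mutants. *Dusp6* was the only member lower without overlap, and 4 (*Fgf1*, *Fgf15*, *Frs3* and *Spred3*) were higher without overlap, against 4.66% and 4.22% of all genes tested. The log2 fold change of *Dusp6* was -0.30 (standard error 0.0570, 95% confidence interval -0.43 to -0.18), a mean 19.0% lower, and its FDR of 0.0104 just missed 0.01. FDR was 0.00943 with edgeR's quasi-likelihood test and 1.38e-05 with DESeq2. *Dusp6* passed 0.01 in 2 of the 10 fits that left out an arch, at 0.00918 without WT5-566 and 0.00473 without KO1-588, and in the other fits FDR was between 0.0131 and 0.0322.

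ERK signalling induces the PEA3 factors, and none of them passed FDR 0.01 in limma-voom. *Etv5* had 88.5, 85.5, 75.6, 69.8 and 70.7 CPM in the wild-type arches and 62.7, 64.6, 62.6, 63.2 and 70.2 CPM in *Grhl2-/-* arches. Only KO3-604 reached the wild-type range, and the log2 fold change was -0.26 (standard error 0.0704, FDR 0.0438 in limma-voom and 0.00447 in DESeq2). *Etv4* ranged from 29.2 to 47.9 CPM in the wild-type arches and from 20.9 to 30.8 CPM in *Grhl2-/-* arches (log2 fold change -0.43, FDR 0.0689). *Etv1* had a log2 fold change of -0.11 (95% confidence interval -0.41 to 0.19, FDR 0.632). *Il17rd*, an inhibitor that acts at the receptor, had 189 ± 14.1 CPM in the wild-type arches and 164 ± 14.5 CPM in *Grhl2-/-* arches (log2 fold change -0.20, FDR 0.0826). *Spry1*, *Spry2*, *Spry3* and *Spry4*, which block the step to RAS, had log2 fold changes between -0.095 and 0.16 and FDR of 0.379 or more.

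WT1-566 and WT1-568 had the highest *Dusp6*, *Etv4*, *Etv5*, *Il17rd* and *Fgfrl1* of the 10 arches, and the fewest sensory neuron transcripts, with sums of 229 and 198 CPM against 855 to 1375 CPM in the other wild-type and 519 to 1728 CPM in the *Grhl2-/-* arches. In a fit without both, chosen after the data were seen, the log2 fold change was -0.24 for *Dusp6* (FDR 0.0570), -0.17 for *Etv5* (FDR 0.173), -0.29 for *Etv4* (FDR 0.233), 0.0061 for *Etv1* (FDR 0.988) and -0.46 for *Fgf8* (FDR 0.200). Over all genes, that fit called 109 at FDR below 0.01, against 286 with every arch. The rises had FDR 0.0378 for *Spred3* and 0.0757 for *Fgf15* in that fit, with log2 fold changes of 0.58 and 3.09. The same pair also had the highest sums of arch mesenchyme markers, 2114 and 2009 CPM, against 1666 to 1787 CPM in the other wild-type arches. The part of neuronal or mesenchymal content in these values was not tested.

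**Figure D5:**
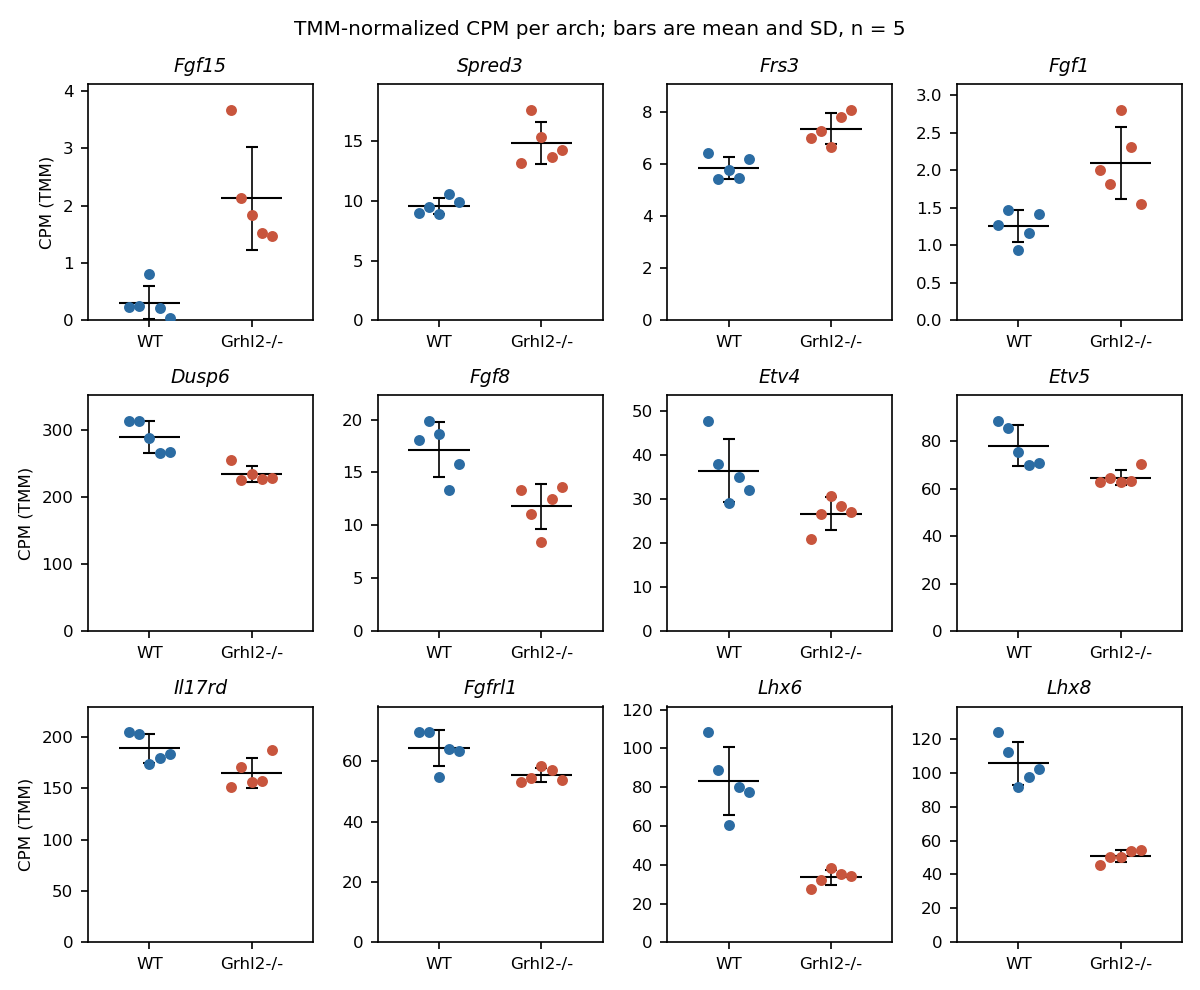
CPM of 10 members and of *Lhx6* and *Lhx8* in each arch (points), with the mean as a horizontal bar and the SD as an error bar (n = 5 per genotype, axes from 0). *Fgf15*, *Spred3*, *Frs3*, *Fgf1*, *Dusp6*, *Lhx6* and *Lhx8* have groups that do not overlap.

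Genes around the pathway were taken from lists. The smallest FDR was 0.0256 among 20 genes of the RAS to ERK core and 0.0183 among 21 other ERK-responsive genes tested, so none passed 0.01. No pathway gene was called higher. Besides these 20 and 21 genes, the lists held 17 tested heparan sulfate genes, 10 arch genes that FGF8 is known to regulate and 3 splicing regulators. Across the lists 14 were higher at an unadjusted p under 0.05, against 14.2% of all genes. At FDR below 0.01, edgeR called 0 of the listed genes higher, against 0.975% of all genes, and DESeq2 4, against 3.57%. Of 17 tested genes that make, edit or carry heparan sulfate, 1 was called lower, against 1.09% of all genes. It was *Glce*, the epimerase of the chain, which fell by 0.25 on the log2 scale (FDR 0.00994). *Glce* had 100.5 ± 3.02 CPM in the wild-type arches and 84.7 ± 5.18 CPM in *Grhl2-/-* arches. That call held in 1 of the 10 fits that left out an arch, the one without KO1-588 (FDR 0.00722).

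Among 10 arch genes that FGF8 signalling is known to regulate, 4 fell and none rose, against 1.09% and 0.879% of all genes. *Lhx6*, a LIM-homeodomain factor of the oral arch mesenchyme, had 109, 89.1, 60.4, 79.9 and 77.6 CPM in the wild-type arches and 27.5, 32.2, 38.1, 35.3 and 34.2 CPM in *Grhl2-/-* arches. *Lhx8*, its relative, had 124, 112, 91.6, 97.2 and 102 CPM in the wild-type arches and 45.4, 50.2, 50.5, 53.6 and 54.6 CPM in *Grhl2-/-* arches. In both genes the groups lay far apart, with log2 fold changes of -1.29 for *Lhx6* (FDR 3.85e-04) and -1.04 for *Lhx8* (FDR 2.66e-05). *Tbx2*, a T-box repressor, fell by 0.60 on the log2 scale (FDR 0.00136) and *Msx1*, a homeobox factor, by 0.66 (FDR 0.00595). *Msx1* lost its call without WT1-566, WT1-568, WT8-568, KO1-628, KO2-568 or KO3-604, at FDR between 0.0140 and 0.0183. Without both WT1-566 and WT1-568, which had the highest values of all 4 genes, FDR was 8.36e-04 for *Lhx6*, 5.93e-05 for *Lhx8*, 0.00299 for *Tbx2* and 0.0203 for *Msx1*. *Barx1* (log2 fold change -0.27, FDR 0.0554), *Pitx1* (-0.19), *Gsc* (-0.15), *Dlx2* (-0.14), *Dlx1* (-0.11) and *Pax9* (0.31) did not pass the test. Several of these genes also answer to other signals such as BMP, and the list does not separate them. *Msx1*, *Dlx1* and *Dlx2* are also among 11 arch mesenchyme markers, of which *Msx1* was the only one called. The sum of the 11 markers was 1666 to 2114 CPM in the wild-type arches and 1386 to 1675 CPM in *Grhl2-/-* arches, with overlap. None of the markers was at 0 in every arch. All 11 had negative changes, and 4 were lower at FDR below 0.05, against 3.87% of all genes. The part of mesenchymal content in the values of the 10 listed genes was not tested, and neither was the part of FGF8.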

How the data were processed

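RNA from 10 dissected arches was sequenced by the authors as stranded, ribosomal RNA-depleted libraries of 50 bp single-end reads. Per the submitters' processing notes, reads were aligned to GRCm38 with STAR and counted with featureCounts, and edgeR 3.18.1 and limma 3.32.7 were used; other versions and the annotation are not given in the sources used here. The authors deposited raw counts per gene, without normalization, for 22114 protein-coding genes. A second deposited table, which holds the authors' own fold changes and FDR values and repeats the counts, was not used.

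Counts were normalized by TMM and tested with voom, lmFit and eBayes (limma 3.58.1, edgeR 4.0.16, R 4.3.3) on genotype, as in the study's methods, for the 14561 genes that reached 10 counts in 1 arch or more. FDR is Benjamini-Hochberg adjusted over these genes, with calls at 0.01. Depth was 22188454 to 28801378 counts per arch. The 20 pairs of arches within a genotype differed by more than sampling noise (chi-square per gene 7.05 to 25.5). Nothing in the labels says whether embryos came from separate litters. The study reports littermates as controls where this could be done, without tying the label numbers to litters. CPM per kb used exon lengths of GENCODE M21 on GRCm38, in which all 44 members were matched, and promoters are from RefSeq on GRCm38.p6. Exons of 11 members overlap a gene on the opposite strand and those of 3 a gene on the same strand, *Fgfr2* with *Ctbp2* among them. Values per arch are given for members at FDR below 0.01 and members whose groups do not overlap. They are also given for the member of each role with the most CPM, not corrected for exon length. Other genes are named from the pathway lists at FDR below 0.01. Members and lists were chosen with earlier results of these data known. As alternatives, DESeq2 1.42.0, edgeR's quasi-likelihood test, other scalings and filters, quality weights, a replicate block, FDR 0.05 and leaving out arches were run. The values of 1 marker gene are not reported here. The scripts were tested on simulated data.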

Additional observations from a re-analysis of the deposited data

Results flagged for a closer look

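*Etv5* in KO3-604 had 70.2 CPM, apart from the other *Grhl2-/-* arches, of which the next highest had 64.6 CPM. On the scale of log2(CPM + 0.5), the gap was 0.724 of the range of the genotype, above the 95% limit for 5 samples. It was the only one of 86 groups set apart in this way, where chance gives about 4.3.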

How the results depend on the processing

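Members called lower numbered 0 in the reported fit and 1 with edgeR's quasi-likelihood test, median-of-ratios size factors, no filter, at least 10 counts in at least 5 arches or quality weights, in each case *Dusp6*. They numbered 3 with DESeq2, which called 1073 of all genes against 286 in the reported fit, and 3 at FDR below 0.05, with 0 to 1 when 1 arch was left out. Members called higher numbered 2 in the reported fit, 4 at FDR below 0.05, 0 without WT1-566 and WT1-568, and 1 to 2 when 1 arch was left out. Pathway genes called lower numbered 7 in the reported fit, against 1.09% of all genes, and 11 with DESeq2, against 3.8%. They numbered 5 to 7 when 1 arch was left out. Pathway genes called higher numbered 0, against 0.879% of all genes, with 4 in DESeq2, against 3.57%, and 2 at FDR below 0.05, against 3.84%. The causes were not tested.

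In correlations between arches, the label numbers did not pair them. The 5 pairs with the same number had a mean correlation of 0.0766 (from -0.398 to 0.561), only 2 were above 0.1, and 1 of 5 wild-type arches correlated best with its own number. With the number as a replicate block, members called higher numbered 0, pathway genes called lower numbered 4, and *Fgf15* (FDR 0.0112) and *Spred3* (FDR 0.0110) lost their calls. *Flrt2* had a log2 fold change of 0.086 and *Spry3* of -0.050 with the block.

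Signs turned only in members far from the threshold. *Fgf10* had a log2 fold change of 0.051 with quality weights, 0.049 without both arches numbered 588 and 0.099 without WT1-566 and WT1-568. The last setting also gave -0.26 for *Fgf18*, -0.093 for *Fgf13*, 0.025 for *Flrt2*, -0.014 for *Spry3* and 0.0061 for *Etv1*. When 1 arch was left out, log2 fold changes ranged from -0.050 to 0.16 for *Fgf2*, -0.12 to 0.12 for *Fgf10*, -0.024 to 0.24 for *Fgf13*, -0.011 to 0.061 for *Fgfr1*, -0.069 to 0.015 for *Flrt2* and -0.018 to 0.14 for *Spry3*. Values of the ligands with few reads carry the largest counting error.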

Other observations

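Between FDR 0.01 and 0.05 lay 2 of 20 genes of the RAS to ERK core and 3 of 21 other ERK-responsive genes, where 7.71% of all genes were below 0.05 in either direction. The groups of these genes did not overlap, and they are named here after their values were seen. *Dusp7*, an ERK phosphatase related to *Dusp6*, had 130 ± 9.12 CPM (SD, n = 5) in the wild-type arches and 109 ± 5.07 CPM in *Grhl2-/-* arches (log2 fold change -0.25, FDR 0.0183 from limma-voom). *Ccnd1*, the cyclin of the G1 phase, had 458 ± 40.0 and 377 ± 28.1 CPM (log2 fold change -0.28, FDR 0.0282). *Hras*, a RAS protein, had a log2 fold change of -0.23 (FDR 0.0256). *Shc1*, an adaptor of receptor kinases, was on the other side at 0.22 (FDR 0.0417), as was *Phlda1* at 0.37 (FDR 0.0398). None of them passed FDR 0.01.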
